A study of Mus musculus with 12 samples.

Results

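The genes described here are 36 mouse genes of DNA replication and S phase, chosen by symbol. Of these, 35 have a row in the deposited count table of 23621 gene symbols, and Fen1 enters only the search of promoters. The table holds 12 polyA RNA-seq libraries of neutrophils from female Balb/c mice aged 8 weeks, 4 in each of 3 groups. Naïve (Naive in what follows, libraries 1, 2, 3 and 4) are bone marrow neutrophils of naive mice. HDN and LDN (each libraries 3, 4, 5 and 7) are high-density and low-density neutrophils from the blood of mice that bore liver metastases. The series title places the study in breast cancer and calls the low-density cells immature. No source used here names the tumour line, how the cells were sorted or whether mice were pooled. Tissue (marrow or blood) and metastasis both separate Naive from the other groups and cannot be told apart. The column names of HDN and LDN also carry a date-like tag that those of Naive lack, so a difference in handling cannot be told apart from the group either. Nothing says that libraries of a group came from separate mice, and the p-values then reflect only spread among libraries, possibly technical.

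DNA replication is prepared in G1, when the origin recognition complex (Orc1, Orc6), Cdc6 and Cdt1 load the ring-shaped MCM2-7 helicase onto DNA. In S phase the helicase is activated by Cdc45, the GINS complex and Mcm10. DNA polymerases then copy both strands with the sliding clamp Pcna, while other enzymes supply nucleotides and rebuild chromatin. Many of these genes are transcribed under E2F factors at the G1 to S transition. In the marrow, early neutrophil precursors divide, whereas later stages and mature neutrophils of the blood have left the cell cycle.

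Promoters of 5 members are shown because they pair genes that differed strongly in level between HDN and LDN (Mcm6, Mcm5, Rrm2) with genes of origin licensing that did not pass that test (Cdc6, Orc6). Each is the 250 bases before the RefSeq transcription start in build GRCm38.p6, written 5′ to 3′ on the gene's strand. Capitals mark E2F-type words on either strand. A word of this type is TTTCGCG or its variant TTTGGCG, and also the word TTTCCCG or its variant TTTGCCG.
Mcm6: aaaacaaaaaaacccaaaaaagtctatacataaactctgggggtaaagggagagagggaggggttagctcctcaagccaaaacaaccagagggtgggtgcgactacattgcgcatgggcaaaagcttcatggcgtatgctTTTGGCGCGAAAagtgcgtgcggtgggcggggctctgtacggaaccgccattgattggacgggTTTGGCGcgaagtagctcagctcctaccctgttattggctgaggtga
Mcm5: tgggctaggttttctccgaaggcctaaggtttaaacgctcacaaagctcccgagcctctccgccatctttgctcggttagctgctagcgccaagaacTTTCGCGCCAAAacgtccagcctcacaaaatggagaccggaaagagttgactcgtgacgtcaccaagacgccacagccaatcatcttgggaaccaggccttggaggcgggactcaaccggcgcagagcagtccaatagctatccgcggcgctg
Rrm2: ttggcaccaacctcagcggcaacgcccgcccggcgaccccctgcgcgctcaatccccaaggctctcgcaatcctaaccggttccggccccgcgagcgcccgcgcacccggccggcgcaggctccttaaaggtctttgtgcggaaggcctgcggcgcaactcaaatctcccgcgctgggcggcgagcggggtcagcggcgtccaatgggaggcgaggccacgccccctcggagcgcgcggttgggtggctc
Cdc6: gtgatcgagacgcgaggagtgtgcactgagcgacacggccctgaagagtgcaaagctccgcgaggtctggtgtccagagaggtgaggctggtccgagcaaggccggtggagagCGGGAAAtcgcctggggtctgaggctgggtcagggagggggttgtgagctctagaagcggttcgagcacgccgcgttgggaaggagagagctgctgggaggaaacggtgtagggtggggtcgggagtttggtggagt
Orc6: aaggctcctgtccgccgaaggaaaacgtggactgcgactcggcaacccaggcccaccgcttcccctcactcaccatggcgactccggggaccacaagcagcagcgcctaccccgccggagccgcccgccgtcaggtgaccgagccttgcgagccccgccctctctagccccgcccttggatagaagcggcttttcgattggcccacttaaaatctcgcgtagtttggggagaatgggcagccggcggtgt
These windows lie at chr1:128359706-128359955 (minus strand, Mcm6), chr8:75109259-75109508 (plus, Mcm5), chr12:24708004-24708253 (plus, Rrm2), chr11:98907901-98908150 (plus, Cdc6) and chr8:85299382-85299631 (plus, Orc6). The Mcm6 and Mcm5 windows each hold a run in which 2 such words overlap on opposite strands, and Mcm6 holds a further one nearer to its start. Cdc6 has 1 word, and Rrm2 and Orc6 have none.

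Levels are given as CPM, reads of a gene scaled to a common library size after normalization by TMM (trimmed mean of M values), in the order of the library numbers. Libraries held 18113922 to 30044508 reads, and 3 reads, taken as the floor below which a level is not distinguished from 0, corresponded to 0.0954 to 0.153 CPM. Such floors and all counting intervals cover counting error only. Of the 35 genes, 34 passed the filter on low counts and were tested with edgeR's quasi-likelihood test among 10604 genes (Benjamini-Hochberg adjusted p, threshold 0.05), and Orc1 did not. Prim1, Pola1 and Pole passed through their Naive libraries, since they reached the 0.415 CPM of the filter in fewer than 4 of the 8 blood libraries. As a check of the labelled cell type, neutrophil markers (S100a8, S100a9, Csf3r and others, 10 measured) were present in every library and summed to between 196907 and 230141 CPM in Naive, 74050 and 127342 in HDN, and 186994 and 248079 in LDN. These markers did not move together. Csf3r and Cxcr2 were higher in HDN than in Naive (log2 fold changes 1.25 and 1.47), whereas 6 markers were lower. Among those 6, S100a8 and S100a9 kept 67.1% and 64.1% of their Naive means. Ltf and Camp, also among them, kept 3.31% and 0.691%.

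The replication genes were high in marrow neutrophils, low in HDN and intermediate in LDN. Their summed level was 530 to 873 CPM in the 4 Naive libraries, 99.5 to 129 in HDN and 128 to 219 in LDN. Naive lay above all blood libraries, while the lowest LDN library (LDN 5) lay just under the highest HDN library (HDN 4). Pcna and Mcm4 made up much of what was left in HDN. Pcna held 24.1% to 29.5% of the members' reads there and Mcm4 15.8% to 23.6%, against 7.20% to 8.07% and 1.96% to 3.10% in Naive. With these 2 genes set aside, the sums were 477 to 789 CPM in Naive, 52.6 to 77.6 in HDN and 92.3 to 180 in LDN, and all LDN libraries then lay above all HDN libraries. In bulk RNA, fewer cells that express a gene and less RNA per cell cannot be told apart.

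**Figure D1:**
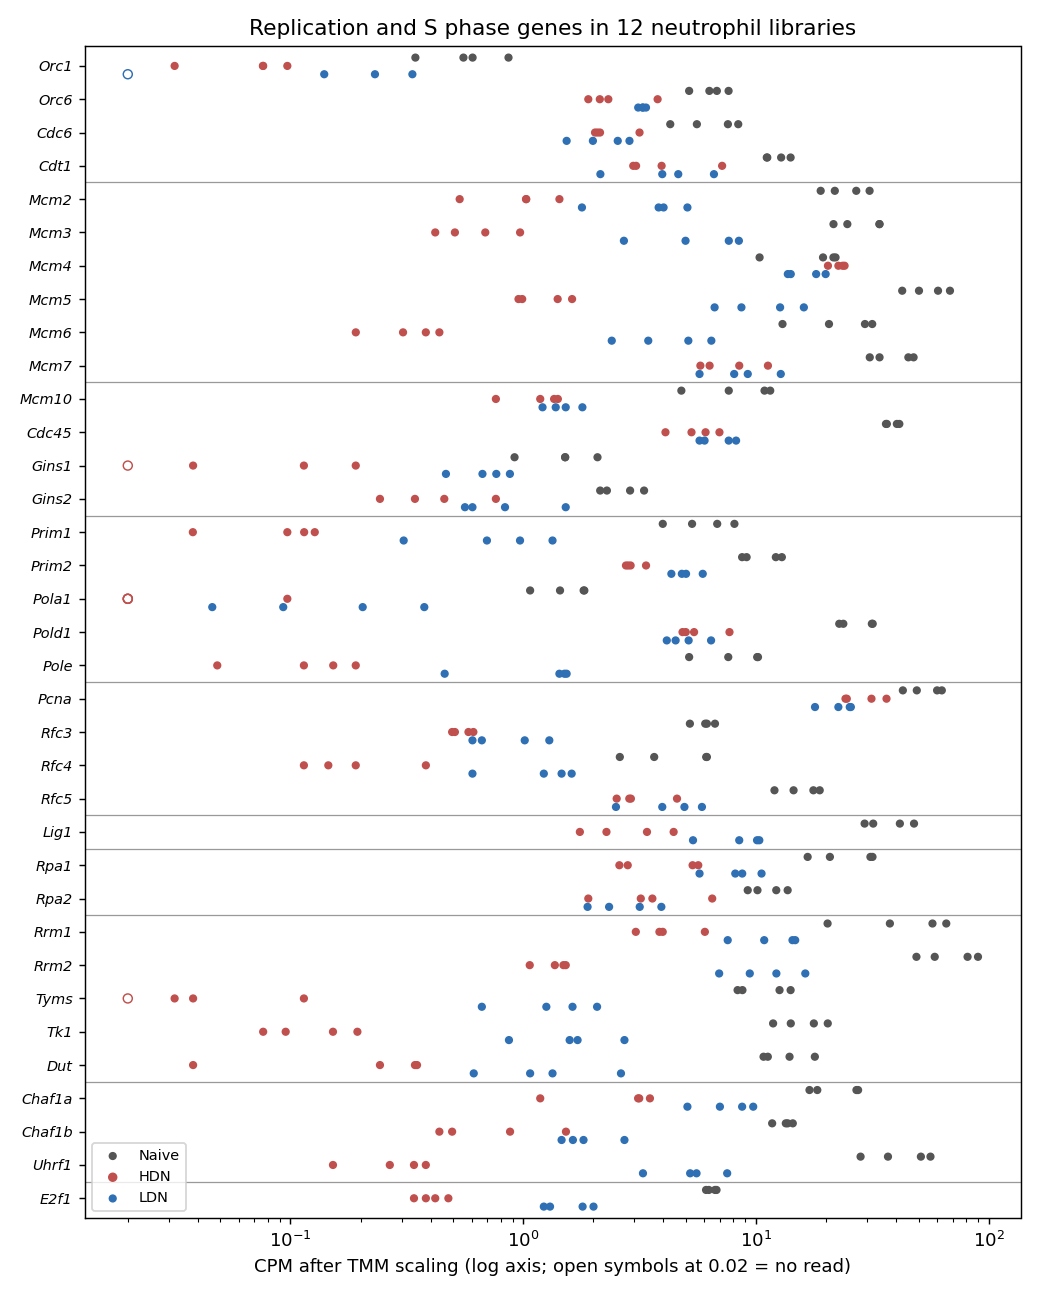
Level of each of the 35 measured genes in the 12 libraries (x axis, CPM after TMM scaling, log axis; 1 row per gene, grouped by role from origin licensing at the top to E2f1 at the bottom; 1 point per library, open symbols at 0.02 stand for no read). Naive points lie to the right of all HDN and LDN points in every row except Mcm4, and LDN points lie to the right of all HDN points in 19 rows.

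In HDN against Naive, 33 of the 34 tested genes were lower and none was higher, where 29.9% of all tested genes were lower and 30.0% higher. In LDN against Naive, 33 were again lower and none higher, where 26.8% of all tested genes were lower and 27.4% higher. Both comparisons use the same Naive libraries. Both counts of 33 include Prim1, Pola1 and Pole, which had entered the test through their Naive libraries. The median log2 fold change of the tested members was -3.55 in HDN and -2.20 in LDN, beside 0.04 and 0.01 over all tested genes. DESeq2 and limma-voom also called 0 members higher in either comparison, and edgeR called 0 at an unadjusted p under 0.05. All 4 HDN libraries lay below all 4 Naive libraries for 34 of the 35 measured members, Orc1 included, as against 27.8% of all tested genes. LDN libraries lay below all Naive libraries for 34 members too, as against 27.8%. The exception in each case was Mcm4.

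LDN against HDN compares 2 density fractions of the same tissue. Here 22 of the 34 tested members were higher in LDN, 12 did not pass and none was lower, where 26.0% of all tested genes were higher and 20.3% lower. The 22 include Prim1, Pola1 and Pole, which had entered the test through their Naive libraries. The 0 for lower members was also given by DESeq2, by limma-voom and by edgeR at an unadjusted p under 0.05. The median log2 fold change of the members was 1.49, beside 0.02 over all tested genes. All 4 LDN libraries lay above all 4 HDN libraries for 19 members, as against 23.6% of all tested genes. Between HDN and LDN, deviations from the group means correlated at 0.315 to 0.768 for libraries of the same number. For unequal numbers the range was -0.615 to 0.420, which overlaps the first. Fitted with the library number as a block, 23 members were higher and 1, Pcna, was lower. When library sizes were taken without the 20 most abundant genes, the median of all genes moved to -0.12 and the split of all called genes from 2761 higher and 2153 lower to 2245 higher and 2778 lower, and 20 members were then higher and 0 lower.

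**Figure D2:**
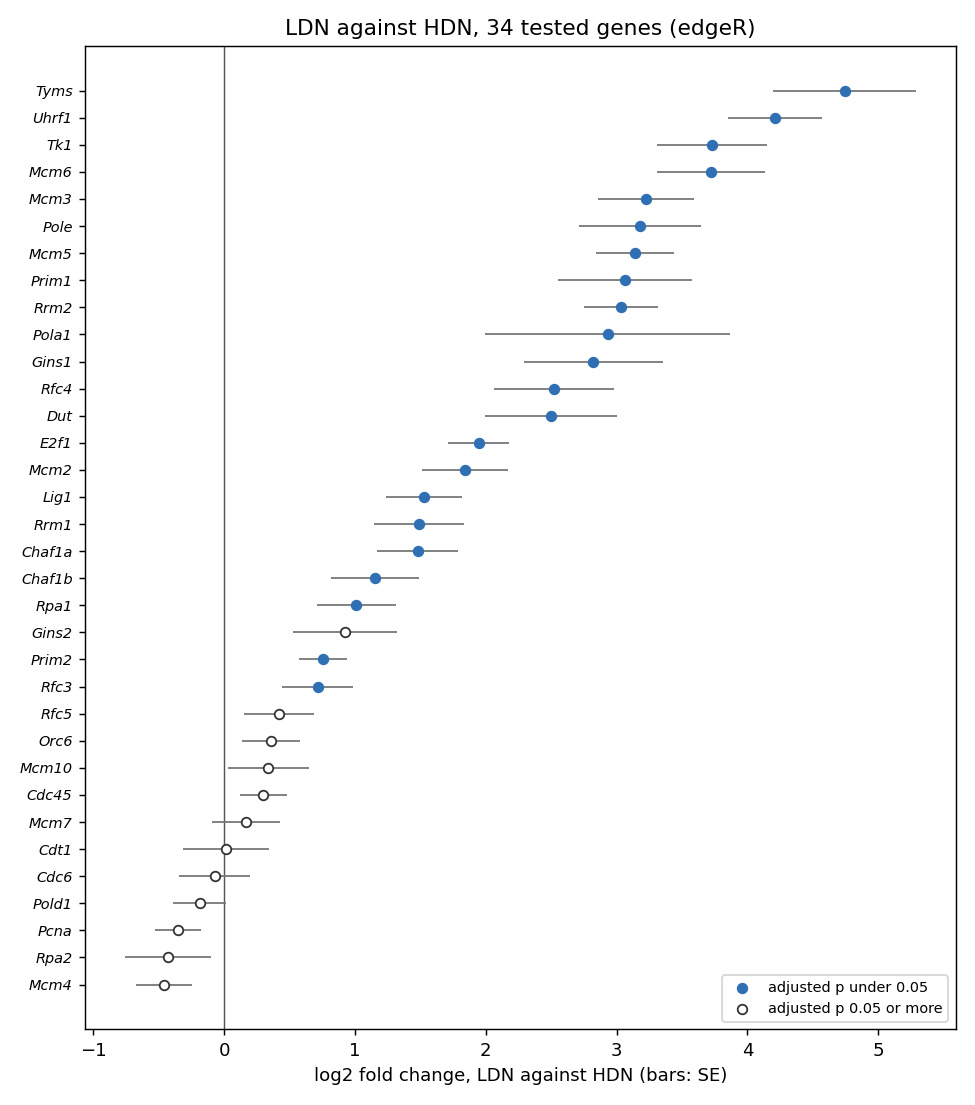
Log2 fold change of LDN against HDN for the 34 tested members (x axis; points are edgeR estimates, bars 1 SE, filled points have an adjusted p under 0.05). The 22 filled points run from Rfc3 (0.71) to Tyms (4.74), and the 12 open points from Mcm4 (-0.46) to Gins2 (0.92).

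Orc6, Cdc6 and Cdt1 of origin licensing kept 34.6% to 50.3% of their Naive mean in both blood fractions and did not pass between them, and Orc1 was not tested. Orc6, a subunit of the origin recognition complex, was at 5.16, 6.79, 6.30 and 7.62 CPM in Naive, 2.13, 2.32, 1.90 and 3.78 in HDN and 3.26, 3.37, 3.27 and 3.12 in LDN. HDN 7 was the highest HDN library and lay above all LDN libraries, whereas the other HDN libraries lay below all of them. The difference between LDN and HDN did not pass (log2 fold change 0.36, SE 0.22, adjusted p = 0.204), and without HDN 7 it did (0.62, adjusted p = 0.0168, with 0.0168 to 0.598 over all alternatives). Cdc6, which brings the helicase to the origin complex, was at 4.28, 5.57, 8.39 and 7.57 CPM in Naive, 2.08, 2.03, 3.16 and 2.14 in HDN and 2.55, 2.86, 1.99 and 1.54 in LDN. HDN and LDN overlapped, and HDN 5 stood above the other HDN libraries. Cdt1, the partner of Cdc6 in loading the helicase, was at 11.1, 11.2, 14.1 and 12.8 CPM in Naive, 3.05, 7.15, 2.97 and 3.93 in HDN and 4.63, 6.60, 2.15 and 3.96 in LDN. Library 4 was the highest of its group in both HDN and LDN. LDN and HDN differed by -0.07 on the log2 scale for Cdc6 (SE 0.27, adjusted p = 0.846) and by 0.01 for Cdt1 (SE 0.33, adjusted p = 0.976), and the sign of both turned under some alternatives. Against Naive, the 3 tested licensing genes were lower in HDN by log2 fold changes of -1.35 (Orc6), -1.45 (Cdc6) and -1.51 (Cdt1). In LDN the fold changes were -0.99, -1.52 and -1.50. Orc1, the largest subunit of the origin complex, had 53 reads in the Naive libraries together, 7 in HDN and 16 in LDN. Its LDN to HDN ratio was 2.76 with a 95% exact counting interval of 1.07 to 7.92, and no read was found in LDN 5.

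The 6 subunits of the MCM2-7 ring, which act in equal numbers in the helicase, did not move together. Mcm2, Mcm3, Mcm5 and Mcm6 were far lower in HDN than in Naive and higher in LDN than in HDN. Mcm6 was at 12.998, 20.6, 31.6 and 29.4 CPM in Naive, 0.436, 0.381, 0.305 and 0.191 in HDN and 6.43, 5.12, 2.40 and 3.44 in LDN. Mcm5 was at 42.5, 50.1, 68.1 and 60.5 CPM in Naive, 1.41, 1.62, 0.990 and 0.954 in HDN and 12.7, 16.1, 6.64 and 8.66 in LDN. Mcm3 was at 21.5, 24.7, 33.9 and 33.9 CPM in Naive, 0.969, 0.509, 0.419 and 0.687 in HDN and 7.64, 8.44, 2.71 and 4.98 in LDN. In each of these genes the 3 groups were fully separated, with LDN 5 the lowest LDN library. Mcm2 was at 19.0, 21.8, 30.8 and 27.0 CPM in Naive, 0.533, 1.43, 1.03 and 1.03 in HDN and 4.01, 5.07, 1.79 and 3.82 in LDN, again without overlap. The log2 fold changes of LDN against HDN were 3.72 (SE 0.41, adjusted p = 1.31e-05) for Mcm6 and 3.22 (SE 0.37, adjusted p = 1.78e-05) for Mcm3. They were 3.14 (SE 0.30, adjusted p = 3.58e-06) for Mcm5 and 1.84 (SE 0.33, adjusted p = 0.000523) for Mcm2. HDN held 1.39% of the Naive mean for Mcm6, 2.25% for Mcm5, 2.27% for Mcm3 and 4.08% for Mcm2, and LDN held 14.9% to 20.8% for the 4 genes.

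Mcm7 and Mcm4 departed from the other subunits. Mcm7 was at 30.8, 33.9, 47.5 and 45.1 CPM in Naive, 5.77, 11.3, 6.32 and 8.47 in HDN and 8.06, 12.8, 5.72 and 9.22 in LDN. Blood libraries lay below all Naive libraries, but LDN and HDN overlapped (log2 fold change 0.17, SE 0.26, adjusted p = 0.632). Mcm4 was at 10.4, 19.4, 21.96 and 21.5 CPM in Naive, 22.6, 20.4, 24.0 and 23.5 in HDN and 19.9, 13.7, 18.1 and 14.1 in LDN. All 4 LDN libraries lay below all 4 HDN libraries. Naive 3 and 4 lay inside the HDN range, and Naive 1 was the lowest of the 12 libraries. None of the 3 comparisons passed for Mcm4, with log2 fold changes of 0.31 (SE 0.21, adjusted p = 0.231) in HDN against Naive, -0.15 (SE 0.21, adjusted p = 0.575) in LDN against Naive and -0.46 (SE 0.21, adjusted p = 0.0948) in LDN against HDN. The last comparison passed when only HDN and LDN were fitted (-0.51, adjusted p = 0.0311) and without LDN 3 (-0.62, adjusted p = 0.0497), and its adjusted p lay between 0.0311 and 0.163 over the alternatives. LDN against Naive passed without Naive 1 (-0.40, adjusted p = 0.0495, with 0.0495 to 0.871 over the alternatives). In GENCODE M21, Mcm4 has no exon that overlaps another gene, whereas exons of Mcm7 overlap those of Cops6 and Ap4m1.

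Per kilobase of exon, where levels can be compared between genes, Mcm4 was a minor subunit in Naive and the major one in HDN. Mcm4 held 6.99% to 10.7% of the summed MCM2-7 level in Naive, 53.4% to 69.5% in HDN and 20.9% to 46.5% in LDN, and the groups did not overlap. Mcm5 held the largest share in Naive, 27.1% to 29.8%, and 2.69% to 4.41% in HDN. The sum over the 6 subunits was 41.3 to 69.4 CPM per kb in Naive, 9.22 to 10.6 in HDN and 10.9 to 18.2 in LDN.

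**Figure D3:**
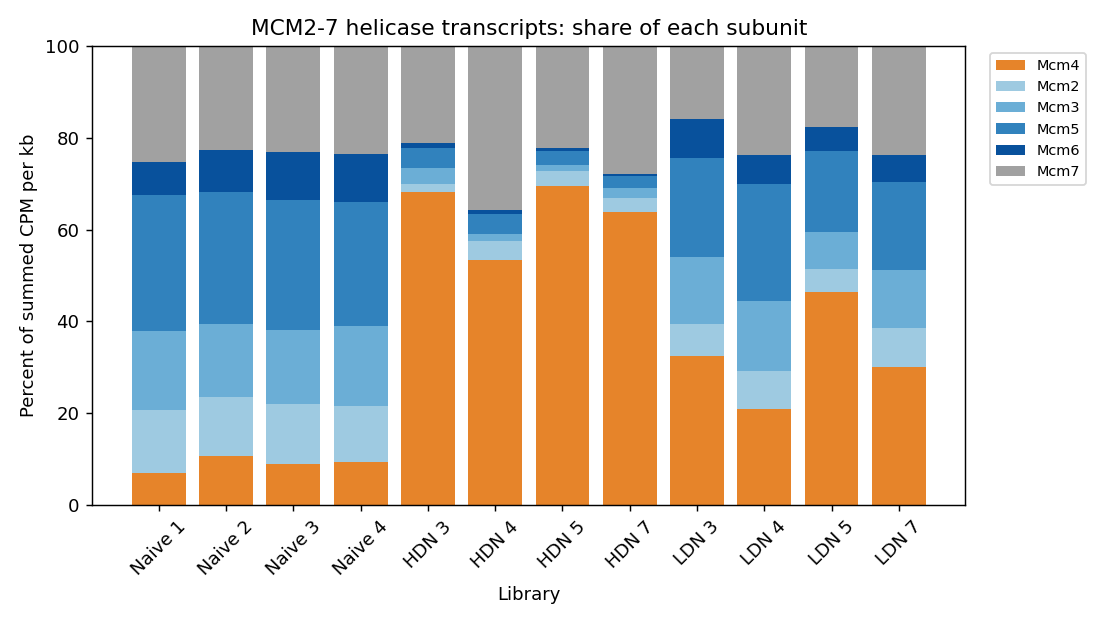
Share of each subunit in the summed MCM2-7 level of each library (y axis, percent of CPM per kb of exon; x axis, the 12 libraries; colours are the subunits). The Mcm4 share is 6.99% to 10.7% in Naive, 53.4% to 69.5% in HDN and 20.9% to 46.5% in LDN.

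Of the genes that activate the helicase, Gins1 was higher in LDN than in HDN and the other 3 did not pass. Gins1, a subunit of the GINS complex, had 136 reads in Naive, 10 in HDN and 60 in LDN. That gave 0.918 to 2.08 CPM, 0 to 0.191 CPM and 0.465 to 0.876 CPM (log2 fold change 2.82, SE 0.53, adjusted p = 0.000797), and LDN reached 46.0% of the Naive mean. The fold change of LDN against Naive was -1.11 (SE 0.39, adjusted p = 0.029) and did not pass without any one of Naive 2, 3 or 4 or LDN 3 or 7 (adjusted p between 0.05355 and 0.0947). Gins2, of the same complex, was at 2.14, 2.29, 3.30 and 2.88 CPM in Naive, 0.242, 0.763, 0.343 and 0.458 in HDN and 0.835, 1.52, 0.562 and 0.605 in LDN. LDN was higher in each of the 4 pairs of equal number, although the groups overlapped. The call depended on the fit, with a log2 fold change of 0.92 (SE 0.40, adjusted p = 0.0712) without a block and 0.94 (adjusted p = 0.0163) with the replicate number as a block, and 0.0163 to 0.318 over the alternatives. Cdc45, the third part of the active helicase, was at 36.2, 36.5, 41.3 and 40.3 CPM in Naive, 5.28, 6.07, 6.97 and 4.08 in HDN and 6.01, 8.21, 5.72 and 7.63 in LDN. Naive libraries were close together, and HDN and LDN overlapped (log2 fold change 0.30, SE 0.18, adjusted p = 0.187). Mcm10, which helps to open the origin, was at 4.78, 7.64, 10.9 and 11.5 CPM in Naive, 1.36, 0.763, 1.41 and 1.18 in HDN and 1.795, 1.52, 1.38 and 1.21 in LDN. HDN and LDN overlapped (log2 fold change 0.34, SE 0.31, adjusted p = 0.386). Exons of Gins2 overlap those of Gse1 over 2758 of 3900 bases in GENCODE M21, and those of Cdc45 overlap Ufd1.

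Among polymerases and primase, Prim2 was higher in LDN and Pold1 did not pass. Pole, Prim1 and Pola1 also passed as higher, but they had entered the test through their Naive libraries and were not tested when only HDN and LDN were fitted. Pole, the catalytic subunit of the leading-strand polymerase, was at 5.16, 7.60, 10.1 and 10.2 CPM in Naive, 0.0485, 0.191, 0.114 and 0.153 in HDN and 1.503, 1.43, 0.460 and 1.54 in LDN. LDN 5 lay below the other LDN libraries and still above all HDN libraries (log2 fold change 3.18, SE 0.47, adjusted p = 0.000124). Prim1, the catalytic primase subunit, was at 3.98, 5.31, 6.81 and 8.08 CPM in Naive, 0.0969, 0.127, 0.0381 and 0.114 in HDN and 1.34, 0.969, 0.306 and 0.698 in LDN. The groups were separated (log2 fold change 3.07, SE 0.51, adjusted p = 0.000328). In HDN these levels rested on 14 reads for Pole and 10 for Prim1, and the LDN to HDN ratios of summed reads were 9.39 (95% exact counting interval 5.36 to 17.7) and 8.93 (4.59 to 19.4). Pola1, the catalytic subunit of polymerase alpha that extends the primers, had 139 reads in Naive, 2 in HDN, both in HDN 3, and 16 in LDN. Its ratio of LDN to HDN was 9.65, with an interval of 2.27 to 86.5. The call for Pola1 (adjusted p = 0.0202) was lost without LDN 3 (adjusted p = 0.0959, with 0.0065 to 0.0959 over the alternatives). Prim2, the regulatory primase subunit, kept far more in HDN, at 2.76 to 3.37 CPM against 8.72 to 12.9 in Naive and 4.33 to 5.90 in LDN (log2 fold change 0.75, SE 0.18, adjusted p = 0.0043). Pold1, the catalytic subunit of the lagging-strand polymerase, was at 22.8, 23.7, 31.7 and 31.5 CPM in Naive, 4.99, 7.69, 4.83 and 5.42 in HDN and 5.14, 6.41, 4.14 and 4.52 in LDN. LDN and HDN overlapped and the difference did not pass (log2 fold change -0.19, SE 0.20, adjusted p = 0.476).

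The clamp Pcna had the highest level per kilobase of all measured members in each group, at 35.3 CPM per kb in Naive, 19.2 in HDN and 15.04 in LDN. In each library Pcna was at 42.7, 49.1, 62.8 and 60.0 CPM in Naive, 24.2, 31.3, 24.6 and 36.4 in HDN and 22.6, 25.3, 17.9 and 25.6 in LDN. Blood libraries lay below all Naive libraries, and in every pair of equal number LDN was below HDN. Without a block LDN against HDN did not pass (-0.35, SE 0.18, adjusted p = 0.117), and with the replicate number as a block Pcna was lower in LDN (-0.34, adjusted p = 0.0429, with 0.0429 to 0.308 over the alternatives). GENCODE M21 names 2 pseudogenes after it, Pcna-ps1 and Pcna-ps2, and how reads were divided among them is not known. Of the clamp loader subunits, Rfc4 was at 2.60 to 6.15 CPM in Naive, 0.114 to 0.382 in HDN and 0.605 to 1.61 in LDN (log2 fold change 2.52, SE 0.46, adjusted p = 0.000651). Rfc3 was at 0.495 to 0.611 CPM in HDN and 0.605 to 1.29 in LDN, with overlap. Its call (0.71, SE 0.27, adjusted p = 0.0426) was lost under most alternatives, among them RLE scaling, DESeq2, limma-voom and the omission of LDN 3 (adjusted p = 0.221, with 0.0294 to 0.221 over all). Rfc5 was at 12.005, 14.5, 17.6 and 18.8 CPM in Naive, 2.52, 4.58, 2.85 and 2.90 in HDN and 4.93, 5.86, 2.50 and 3.96 in LDN. LDN spanned the whole HDN range (log2 fold change 0.42, SE 0.27, adjusted p = 0.216).

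Lig1, the ligase that joins Okazaki fragments, was at 29.3 to 47.7 CPM in Naive, 1.75 to 4.43 in HDN and 5.36 to 10.3 in LDN (log2 fold change 1.53, SE 0.29, adjusted p = 0.000892). Of the single-strand binding protein RPA, the large subunit Rpa1 was higher in LDN and Rpa2 did not pass. Rpa1 was at 2.59 to 5.65 CPM in HDN and 5.72 to 10.6 in LDN, so the groups just failed to overlap (log2 fold change 1.01, SE 0.30, adjusted p = 0.0142). That call was lost without LDN 4 (adjusted p = 0.0553) and with library sizes that leave out the 20 most abundant genes (adjusted p = 0.0619, with 0.00268 to 0.0619 over the alternatives). Rpa2, the middle subunit, was at 9.21, 10.1, 13.7 and 12.2 CPM in Naive, 3.20, 6.48, 1.90 and 3.59 in HDN and 2.34, 3.92, 1.89 and 3.17 in LDN. LDN lay below HDN in every pair of equal number, but the groups overlapped and the difference did not pass (log2 fold change -0.43, SE 0.33, adjusted p = 0.306).

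All 5 genes of nucleotide supply were higher in LDN than in HDN. Tyms, thymidylate synthase, was at 8.33, 8.74, 14.1 and 12.6 CPM in Naive, 0, 0.0318, 0.114 and 0.0382 in HDN and 1.63, 2.08, 0.664 and 1.26 in LDN. HDN held 5 reads in 4 libraries, at or under the floor in each, against 982 in Naive and 124 in LDN. The ratio of LDN to HDN from the summed reads was 29.9 (95% exact counting interval 12.5 to 93.7), and the fit gave log2 fold change 4.74, SE 0.55, adjusted p = 1.81e-05. Tk1, the thymidine kinase of the salvage route, was at 14.1, 11.8, 20.3 and 17.7 CPM in Naive, 0.194, 0.0954, 0.152 and 0.0763 in HDN and 1.71, 2.72, 0.868 and 1.58 in LDN. The groups were separated, and LDN held 151 reads against 13 in HDN (log2 fold change 3.73, SE 0.42, adjusted p = 1.51e-05). Rrm2, the regulated small subunit of ribonucleotide reductase, was at 48.9, 58.6, 89.9 and 81.1 CPM in Naive, 1.07, 1.37, 1.52 and 1.49 in HDN and 12.2, 16.3, 6.95 and 9.40 in LDN. The highest HDN library was at 1.52 CPM and the lowest LDN library at 6.95 (log2 fold change 3.03, SE 0.28, adjusted p = 3.57e-06). Dut, which removes dUTP, was at 11.2, 10.8, 17.9 and 13.9 CPM in Naive, 0.242, 0.350, 0.343 and 0.0382 in HDN and 1.34, 2.63, 0.613 and 1.07 in LDN. LDN libraries lay above all HDN libraries (log2 fold change 2.50, SE 0.50, adjusted p = 0.00132). Rrm1, the large subunit of ribonucleotide reductase, fell less than Rrm2 in HDN, to 9.34% of the Naive mean against 1.96%, and was also higher in LDN (log2 fold change 1.49, SE 0.34, adjusted p = 0.00324).

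The genes of chromatin assembly and inheritance were all higher in LDN than in HDN. Uhrf1, which reads hemimethylated DNA behind the fork, was at 28.1, 36.9, 56.2 and 51.1 CPM in Naive, 0.339, 0.381, 0.152 and 0.267 in HDN and 5.55, 7.52, 3.27 and 5.21 in LDN. No group overlapped another, and HDN held 0.662% of the Naive mean and LDN 12.5% (log2 fold change 4.21, SE 0.36, adjusted p = 1.78e-06). Chaf1a and Chaf1b, subunits of the histone chaperone CAF-1, had log2 fold changes of 1.48 (SE 0.31, adjusted p = 0.00175) and 1.15 (SE 0.34, adjusted p = 0.0133). HDN and LDN overlapped for Chaf1b (0.436 to 1.53 and 1.46 to 2.72 CPM), and its call was lost without LDN 4 (adjusted p = 0.0533) and when only HDN and LDN were fitted (adjusted p = 0.0508, with 0.000296 to 0.0533 over the alternatives). E2f1, a transcription factor that drives many of the members, was at 6.10 to 6.77 CPM in Naive, 0.339 to 0.477 in HDN and 1.23 to 2.00 in LDN (log2 fold change 1.95, SE 0.23, adjusted p = 2.41e-05).

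Set beside the marrow level, the members covered a wide range in HDN and a narrow one in LDN. The HDN mean was a median of 9.12% of the Naive mean over the 35 genes, from 0.421% for Tyms to 124% for Mcm4. The LDN mean was a median of 22.7%, from 10.5% for Dut to 89.9% for Mcm4. With bands set after the values were seen, 13 genes had an HDN mean under 5% of Naive (Mcm2, Mcm3, Mcm5, Mcm6, Prim1, Pola1, Pole, Rfc4, Rrm2, Tyms, Tk1, Dut and Uhrf1). All 13 were higher in LDN than in HDN, where 26.0% of all tested genes, not split into bands, were higher. The LDN means of the 13 were 10.5% to 26.5% of Naive. Of these, Prim1, Pola1 and Pole had entered the test through their Naive libraries. A further 15 had 5% to 25%, of which 8 were higher in LDN. The other 7, with 25% or more, were Orc6, Cdc6, Cdt1, Mcm4, Prim2, Pcna and Rpa2, of which Prim2 alone was higher in LDN. Since HDN enters both the band and the LDN to HDN comparison, the link between them is a description.

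**Figure D4:**
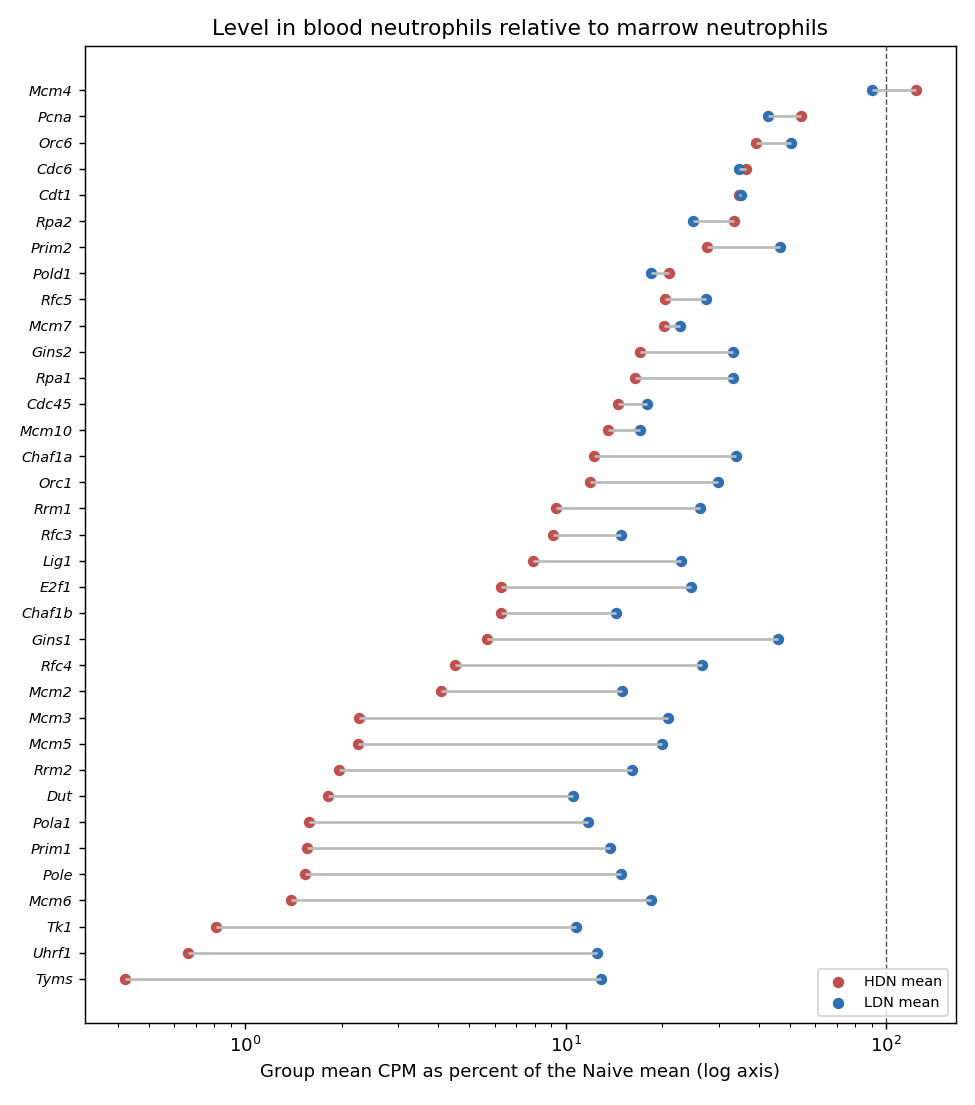
Mean CPM of HDN and LDN as a percentage of the Naive mean for each of the 35 genes (x axis, log axis; 2 points per gene joined by a line, genes ordered by their HDN value, dashed line at the Naive mean). HDN points spread from 0.421% (Tyms) to 124% (Mcm4), while LDN points lie between 10.5% (Dut) and 89.9% (Mcm4).

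Libraries of a group tended to rank alike over the members. Naive 1 was the lowest Naive library for 31 of the 35 genes and Naive 3 the highest for 25. LDN 5 was the lowest LDN library for 24 and LDN 4 the highest for 23, while in HDN no library was the highest for more than 16 (HDN 4). In pairs of equal number, LDN exceeded HDN for 32 genes in number 3, 30 in number 4, 24 in number 5 and 28 in number 7. Neither these counts nor the ranks above were taken over all tested genes, so they describe the members only. No member's call of lower in HDN than in Naive depended on a single library.

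Markers of other cell types and of early precursors also differed between the groups, some lists in the same order of groups as the members and others not. Of 6 measured early neutrophil precursor genes, the granule genes Mpo, Elane, Prtn3 and Ctsg and the ficolin gene Fcnb were higher in LDN than in HDN. Each had all LDN libraries above all HDN libraries. Over all tested genes, 26.0% were higher and 23.6% had all LDN libraries above all HDN libraries. Mpo had a mean of 68.2 CPM in Naive, 0.995 in HDN and 20.2 in LDN. For Elane the means were 23.0, 0.329 and 5.55. Prtn3 departed from this order, with 19.3 CPM in Naive, 12.5 in HDN and 44.6 in LDN. Chil3, the most abundant of the 6, was at 1697, 399.7 and 1070.01 CPM, overlapped between HDN and LDN and did not pass there (log2 fold change 1.42, adjusted p = 0.101).

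Summed over pro-B and pre-B cell genes (7 measured, Igll1 and Rag2 with no read in HDN), levels were 5.85 to 21.0 CPM in Naive, 0.0763 to 0.495 in HDN and 0.0923 to 1.53 in LDN. B cell genes (3 measured) summed to 14.9 to 37.6, 0.305 to 1.83 and 1.21 to 5.46 CPM. Naive 1, the lowest Naive library in the members, was also the lowest of its group in both B lineage sums. The same held for the sums of early precursor, haematopoietic progenitor, erythroid, natural killer and mitosis genes. For neutrophil, T cell, monocyte and macrophage, platelet and epithelial genes, Naive 1 was the highest of its group. T cell genes (3 measured) summed to 191 to 266 CPM in Naive, 3.24 to 16.7 in HDN and 31.2 to 46.2 in LDN. Platelet genes (5 measured) summed to 111 to 121, 9.35 to 11.1 and 27.5 to 32.5 CPM. Natural killer genes (3 measured, Klrb1c with no read in HDN) reached at most 1.83, 0.228 and 2.25 CPM. These sums were lowest on average in HDN, as the members were, though not every gene was. Cd3d made up most of the T cell sum in each group. Cd3e had means of 0.0876 CPM in Naive, 0.535 in HDN and 0.718 in LDN, while Cd3g was lowest in HDN. Itgb3 made up most of the platelet sum in Naive and LDN, and Itga2b most of it in HDN. Itga2b had means of 2.59, 6.84 and 2.31 CPM, while the other platelet genes were lowest in HDN. Other lists did not have their lowest sums in HDN. Erythroid genes (11 measured, the 4 haemoglobin genes with no read in any group) summed to 5.73 to 11.999, 1.72 to 6.45 and 1.21 to 2.42 CPM. Monocyte and macrophage genes (6 measured) summed to 614 to 823, 343 to 549 and 245 to 338 CPM. Haematopoietic progenitor genes (6 measured) summed to 11.7 to 18.8 CPM in Naive, 357 to 797 in HDN and 82.5 to 168 in LDN. Most of each sum was Kit, with means of 11.1, 590 and 112 CPM. Cd34 was highest in LDN (means of 0.523, 0.755 and 1.98 CPM). By contrast, Sox4 (2.66, 0.0983 and 0.214 CPM), Flt3, Meis1 and Gata2 were lowest on average in HDN. Epithelial genes (4 measured, Krt19 with no read in any group) summed to at most 0.268, 7.71 and 1.12 CPM. The part of such cells in the members' levels was not tested.

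Mitosis genes, which act after S phase, showed the same order of groups, with lower HDN values relative to Naive. Of the 20 listed (Mki67, Top2a, Ccnb1 and others), 19 were measured. All 19 were lower in HDN and in LDN than in Naive and higher in LDN than in HDN. Bub1 and Cenpe, counted in the 19, had entered the test through their Naive libraries. Over all tested genes, 29.9% were lower in HDN than in Naive and 26.8% lower in LDN than in Naive. The share higher in LDN than in HDN was 26.0%. The mitosis genes summed to 646 to 957 CPM in Naive, 10.01 to 16.8 in HDN and 98.5 to 180 in LDN. The HDN mean was a median of 1.06% of the Naive mean over these genes, against 9.12% over the replication genes, and the LDN mean 16.6% against 22.7%.

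Other genes of the pathway, listed by function and not by their change, were compared in the same way. Of 112 in the file, 108 were tested. Of these, 47 were higher and 13 lower in LDN than in HDN, where 26.0% of all tested genes were higher and 20.3% lower. Cdc7, of other replication machinery, had entered the test through its Naive libraries and was called in each comparison. How many other listed genes entered this way was not counted. In HDN against Naive 10 were higher and 67 lower, where the shares over all tested genes were 30.0% and 29.9%. In LDN against Naive 11 were higher and 70 lower, beside 27.4% and 26.8% of all tested genes, and the 11 became 7 without Naive 2 and 6 with library sizes that leave out the 20 most abundant genes. Other replication machinery had 16 higher and 1 lower of 34 in LDN against HDN. Ticrr, which helps to fire origins, rose from a mean of 0.104 CPM in HDN to 1.31 in LDN (log2 fold change 3.69). Clspn, a checkpoint mediator at the fork, rose by 2.88 on the log2 scale and Chtf18, of an alternative clamp loader, by 2.42, whereas Chtf8 of the same loader fell by 0.30. In other chromatin assembly, where 2 of 7 were higher and 1 lower, shares near those of all tested genes (26.0% and 20.3%), the histone chaperone Asf1b rose by 4.04 and the maintenance methyltransferase Dnmt1 by 2.31 on the log2 scale. Asf1a, the paralogue of Asf1b, fell by 0.52.

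In other nucleotide supply 7 of 21 genes were higher and 5 lower in LDN than in HDN, near the shares over all tested genes (26.0% and 20.3%). Atic and Paics of purine synthesis rose by 2.17 and 2.02 on the log2 scale, and the folate enzyme Mthfd1 by 1.92. Cad and Umps of pyrimidine synthesis fell by 0.99 and 0.70, and Impdh2 of guanine nucleotide synthesis fell by 0.95. Of 26 genes of G1 to S control, 14 were higher and 2 lower, beside the same 26.0% and 20.3%. The E2F family members E2f7, E2f2 and E2f8 rose by 4.44, 2.03 and 1.70 on the log2 scale, while the D-type cyclin Ccnd2 fell by 2.05 and Lin52 by 0.89. E2f2 had a mean of 318 CPM in Naive, 68.4 in HDN and 280 in LDN. Of 6 inhibitors of cyclin-dependent kinases, Cdkn1c, Cdkn1a and Cdkn1b were lower in LDN than in HDN, by -2.02, -1.74 and -0.77, and Cdkn2c and Cdkn2d were higher, by 0.84 and 0.59. Cdkn1a (p21) had a mean of 7.88 CPM in Naive, 44.2 in HDN and 13.3 in LDN. In the list of replication stress and checkpoint genes, 6 of 14 rose and 1 fell, beside 26.0% and 20.3% of all tested genes. Fancd2 and Brca2, which act in DNA crosslink repair, rose by 2.91 and 2.09 on the log2 scale, and Etaa1, an activator of the checkpoint kinase ATR, fell by 1.26.

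E2F-type words were more frequent in the members' promoters than in those of all genes, and were found in members that differed between the blood fractions and in members that did not. RefSeq promoters (250 bases before to 50 after the start) were matched for 31 of the 36 genes, Fen1 included, and 16 of them (51.6%) held such a word, against 7.65% of 27025 genes. Mcm4, Gins1, Gins2, Prim2 and Pole were not matched. CCAAT, searched on both strands, was found in 61.3% of the matched members and 41.1% of all genes, and the CHR word TTTGAA in 9.68% and 20.2%. Among genes with an HDN level under 5% of Naive, 5 of 12 matched promoters had an E2F-type word, as did 8 of 13 in the middle band and 2 of 5 with 25% or more. Fen1, which had such a word, has no level here and is in no band. A gene with several starts was counted as having a word when any of its promoters had one.

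In the authors' deposited tables of DESeq2 comparisons, 21 of the 35 genes were higher in LDN than in HDN at an adjusted p under 0.05 and 0 lower. There, 34 were lower in HDN and in LDN than in Naive. Shares over all genes were not taken from those tables. The DESeq2 fit made here called 2801 of 12700 genes higher and 2644 lower in LDN than in HDN. It called 3630 of 13617 lower in HDN than in Naive, and 3337 of 13311 lower in LDN than in Naive. The authors' deposited table gives Mcm4 a log2 fold change of -0.50 (adjusted p = 0.0558) and Rfc3 one of 0.66 (adjusted p = 0.072) in LDN against HDN. These tables come from the same libraries and are not independent of the fits above. How strands were treated in counting is not known, and exons of 12 of the 35 genes overlap those of another gene in GENCODE M21. Of those 12, 6 were among the 22 genes higher in LDN (Pole, Rfc4, Lig1, Rpa1, Tk1 and Chaf1a) and 5 among the 12 that did not pass (Orc6, Mcm7, Cdc45, Gins2 and Rfc5).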

How the data were processed

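Per the labels' protocols, RNA was extracted with TRIzol and columns and polyA libraries were made with a stranded kit. Per the submitters' processing notes, CASAVA 1.8.2, Trimmomatic, STAR and DESeq2 1.16.1 were used. How reads were counted (build, annotation, strand) is not given in the sources used here. The deposited table holds raw counts per gene symbol, in 12 columns of sample values, of which 0 matched no sample. Per the file headers, 3 further tables deposited by the authors come from DESeq2 and hold log2 fold changes and adjusted p-values. Reads without molecular identifiers are not independent molecules.

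Counts were tested with edgeR 4.0.16 (R 4.3.3; filterByExpr, TMM scaling, robust quasi-likelihood fit over all 12 libraries, with no covariate beside group, Benjamini-Hochberg adjustment over 10604 genes, which held 99.967% of reads). The SE is the log2 fold change divided by the square root of F. Exon lengths and overlaps came from GENCODE M21 (GRCm38), matched by symbol, and promoters from RefSeq (GRCm38.p6). The scripts were tested on simulated data. The members and all lists were chosen with earlier results of these data known. Values in every library were given for the 8 members with the largest passing change in LDN against HDN, for those that did not pass, and for MCM2-7, Pcna, Rrm2 and Dut. Other pathway genes, apart from Cdc7, were named where they passed and were among the 3 largest in a direction of their list. A gene that met this rule is not reported here.

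Samples of a group differed beyond counting error (chi-square per gene 3.31 to 187), so none was counted as a duplicate. HDN and LDN share replicate numbers in the labels. Deviations from the group means correlated at 0.315 to 0.768 for equal numbers and at -0.615 to 0.420 for unequal ones, so the numbers were taken to pair HDN with LDN. Naive shares numbers 3 and 4 with them, with correlations of -0.129 to 0.163, and was not treated as paired. Alternatives were RLE scaling, library sizes without the 20 most abundant genes, no filter, DESeq2 1.42.0, limma-voom (limma 3.58.1), the replicate block, a fit of only the groups compared, and leaving out each library.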

Additional observations from a re-analysis of the deposited data

Results flagged for a closer look

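In 4 of 105 groups of 4 libraries examined, 1 library stood apart from the other 3 by Dixon's test, which by chance flags about 1 in 20 groups. Cdc6 was at 3.16 CPM in HDN 5, with the other HDN libraries at 2.03 to 2.14. Pola1 was at 0.0969 CPM in HDN 3, under the floor of 3 reads, and at 0 in the other HDN libraries. Pole was at 0.460 CPM in LDN 5, with the other LDN libraries at 1.43 to 1.54. Chaf1a was at 1.18 CPM in HDN 7, with the other HDN libraries at 3.12 to 3.50.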

How the results depend on the processing

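Between 17 and 23 members were higher in LDN than in HDN under all alternatives (19 to 23 with 1 library left out). The 17 came from the fit of HDN and LDN alone, in which Prim1, Pola1 and Pole fell below the filter and were not tested. In that edgeR fit Rfc3 (adjusted p = 0.12) and Chaf1b (adjusted p = 0.0508) also lost their calls. The number lower in LDN was 1 with the replicate block (Pcna), 1 when only HDN and LDN were fitted (Mcm4), and 0 to 1 with 1 library left out (Mcm4 without LDN 3). Between 33 and 34 members were lower in HDN than in Naive, and 32 to 35 in LDN. The replicate block changed no other member's call between HDN and LDN than those of Gins2 and Pcna. Blocked by number, Gins1 in LDN against Naive did not pass (-1.21, adjusted p = 0.0638). Pathway genes higher in LDN than in Naive numbered 6 with library sizes without the 20 most abundant genes and 7 to 9 with 1 library left out.

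Signs turned for 3 genes near 0 in LDN against HDN. Cdt1 was at -0.0384 with RLE scaling, -0.12 with library sizes without the 20 most abundant genes, -0.0240 with no filter, -0.0312 with DESeq2, -0.00725 with limma-voom, -0.0265 when only both groups were fitted, and -0.31 to 0.39 with 1 library left out. Left-out libraries gave -0.27 to 0.10 for Cdc6 and -0.11 to 0.39 for Mcm7. The cause was not tested. Genes with few reads in HDN (Tyms, Pola1, Prim1, Tk1, Pole, Gins1, Orc1) are limited by depth, and a level under 3 reads was not distinguished from 0.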
